A study of Mus musculus with 15 samples.

Results

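The cytosolic ribosome of mouse is built from ribosomal RNA and ribosomal proteins, which are encoded by separate genes for the large (Rpl) and the small (Rps) subunit. Here these genes were taken as the protein-coding genes of the GENCODE M21 annotation whose symbols begin with Rpl or Rps and a number, together with the stalk genes Rplp0, Rplp1 and Rplp2 and with Rpsa, leaving out the Rps6k kinases, Rps19bp1, Rpl7l1 and symbols holding -ps. The rule gave 84 genes, 51 of the large and 33 of the small subunit. Transcripts of 82 of them, 49 large and 33 small, were listed in the deposited tables, and all 82 entered the tests among 12267 genes. Rpl10l and Rpl39l had no listed transcript in the tables and are not analysed here.

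The libraries came from hearts of male C57BL/6 mice and formed 3 groups of 5. The AngII+QDG mice were infused with angiotensin II (AngII), the hormone of the renin-angiotensin system that constricts vessels and drives heart muscle growth, and were also given QDG, a treatment that the labels name only by this abbreviation. AngII mice received AngII without QDG, and Control mice were labelled only as controls, with no age, dose or duration given for any group. Total RNA was freed of rRNA and sequenced, and the study asked which genes and pathways differ between the groups. Values are FPKM, fragments scaled to transcript length and library size, summed per gene over its listed transcripts, so that levels of different genes are compared per length.

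Most ribosomal proteins are needed in equal numbers, and their mRNAs are among the most abundant of any cell. Growing heart muscle, as under angiotensin II, needs more ribosomes, and ribosome synthesis is driven by mTOR and Myc signalling. Most ribosomal protein mRNAs start with a C followed by a run of pyrimidines, the 5′ terminal oligopyrimidine (TOP) motif, through which mTOR controls their translation. Unassembled ribosomal proteins such as Rpl5 and Rpl11 bind Mdm2 and stabilise p53.

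Heart muscle markers were at high levels in every library. The summed FPKM of 8 cardiomyocyte markers was 21093 to 37324 in AngII+QDG, 28436 to 32028 in AngII and 27006 to 35792 in Control. Of 5 skeletal muscle markers, Myh1, Myh2, Myh4 and Actn3 were not listed, while Ckm, a creatine kinase that heart muscle also makes, had 730 to 960 FPKM in AngII+QDG, 866 to 1030 in AngII and 885 to 1116 in Control. Of 5 lymphocyte markers, Cd3e, Cd3g, Cd79b and Ms4a1 were not listed, and Cd79a had 0.187 to 0.524, 0.0831 to 1.69 and 0.358 to 1.25 FPKM in the same order. Erythroid markers summed to 2698 to 9472 FPKM in AngII+QDG, 2198 to 9324 in AngII and 3795 to 12221 in Control, and 5 endothelial markers to 119 to 164, 123 to 179 and 68.3 to 136 in the same order. The 6 fibroblast markers summed to 214 to 327 FPKM in AngII+QDG, 218 to 327 in AngII and 190.3 to 247 in Control, and the 5 smooth muscle and pericyte markers to 178 to 283, 224 to 345 and 129 to 235. Median changes against Control were 0.34 and 0.44 for fibroblast, 0.34 and 0.54 for smooth muscle and pericyte, 0.54 and 0.47 for endothelial and −0.42 and −0.48 for erythroid markers, in AngII+QDG and AngII. The 6 macrophage markers summed to 68.5 to 91.4 FPKM in AngII+QDG, 66.3 to 118 in AngII and 63.9 to 115 in Control, with median changes of 0.02 and 0.21. In AngII+QDG limma called 2 fibroblast, 2 endothelial and 2 macrophage markers higher and 1 erythroid marker lower, and in AngII 1 smooth muscle and pericyte, 1 macrophage and 1 cardiomyocyte marker higher. Of all tested genes, 16.0% were called higher and 3.31% lower in AngII+QDG, and 11.9% higher and 1.48% lower in AngII. The part of these cell types in the results was not tested. The libraries also differed in the balance of transcript lengths. Short transcripts of other genes (2149 of under 1000 nt) stood above long ones (6252 of at least 3000 nt) by 0.66 ± 0.09 log2 units in AngII+QDG, 0.70 ± 0.07 in AngII and 1.04 ± 0.17 in Control (SD, n = 5 each). All libraries of both AngII groups lay below all Control libraries, and Control 3 (1.24) and Control 5 (1.19) were highest. AngII+QDG tables listed 31734 transcripts and the tables of both other groups 31685, with 29996 in all tables, so that any difference in how these sets of tables were made and the QDG treatment cannot be told apart. Depth, read from the steps of low FPKM values, was 51.6 to 78.3 in units of 1e6 fragments per library. All genes together shifted by a median of 0.18 log2 units in AngII+QDG against Control and by 0.20 in AngII against Control. In bulk tissue, fewer cells of a type and less RNA per cell cannot be told apart.

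Promoters were looked up for the genes that were called lower in a comparison below or whose libraries did not overlap, because these carry the group differences. RefSeq start sites (build GRCm38.p6) were given for 64 of the 84 genes, in 76 windows, and lines are printed for 7 of the 13 genes looked up. Each line runs from 25 bases before the start to 15 after it, 5′ to 3′, and capitals mark an unbroken pyrimidine run that begins with C at the first transcribed base.
Rpl28, chr7:4792940-4792979, plus strand: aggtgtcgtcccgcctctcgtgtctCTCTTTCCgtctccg
Rplp2, chr7:141447626-141447665, plus strand: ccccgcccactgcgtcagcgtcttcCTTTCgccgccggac
Rpl35, chr2:39005117-39005156, minus strand: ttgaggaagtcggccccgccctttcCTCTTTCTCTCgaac
Rpl38, chr11:114668555-114668594, plus strand: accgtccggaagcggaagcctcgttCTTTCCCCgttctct
Rpl6, chr5:121204476-121204515, plus strand: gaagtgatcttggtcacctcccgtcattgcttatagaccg
Rpl37, chr15:5116588-5116627, plus strand: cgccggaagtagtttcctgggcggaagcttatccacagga
Rps13, chr7:116334176-116334215, minus strand: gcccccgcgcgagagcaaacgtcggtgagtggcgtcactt
Rpl28 and Rpl38 have runs of 8 pyrimidines, Rpl35 of 11 and Rplp2 of 5, while Rpl6, Rpl37 and Rps13 have none at the listed start. Across windows, a C followed by at least 4 more pyrimidines at the start was found in 14 of 76 windows of ribosomal protein genes (18.4%), in 2.26% of 11221 windows of other tested genes and in 2.51% of all 32851 windows. The 14 genes with such a start were Rpl14, Rpl15, Rpl28, Rpl35, Rpl35a, Rpl38, Rplp2, Rps6, Rps10, Rps15a, Rps18, Rps21, Rps27 and Rps27rt. The ETS-family letters CCGGAAG, sought on both strands from 250 bases before to 50 after the start, were in 35.5% of the windows of ribosomal protein genes, in 17.4% of those of other tested genes and in 8.86% of all. For the GC box GGGCGG the shares were 59.2%, 62.9% and 35.7%, and for TATAAA 9.21%, 7.29% and 13.6%. Read on the opposite strand, CCGGAAG is CTTCCGG, whose first 5 letters are pyrimidines, so the search for it can overlap that for a pyrimidine start. CCGGAAG lies within the lines printed for Rpl37 and Rpl38. The pyrimidine search required a C at the listed start base itself, so a start listed some bases away counts as having no run. A match is a description of the letters only.

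Within a heart, the ribosomal protein genes spanned a wide range of levels. The 82 genes summed to 21631 ± 2027 FPKM in AngII+QDG, 22389 ± 1751 in AngII and 26278 ± 4029 in Control, or 3.05 ± 0.21%, 3.17 ± 0.243% and 3.31 ± 0.404% of all FPKM in the same order of groups (SD, n = 5 each). The ranges of the groups overlapped for both measures. Averaged over the 15 libraries, 69 of the 82 genes were at or above 100 FPKM, a level reached by 522 of all 12267 tested genes. Rplp1, an acidic protein of the stalk that recruits elongation factors, was highest with a mean of 981 FPKM, followed by Rpl36 (735), Rpl13 (606), Rps2 (604) and Rpl23a (598). The lowest means were listed for Rps27a (7.21 FPKM), Rpl29 (19.6), Rpl22l1 (19.6), Rpl7a (28.0) and Rpl21 (29.7). Of these, Rps27a had no listed protein-coding transcript, and the levels of the other 4 jumped between libraries as described further on.

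Large and small subunit genes stood in similar proportion in the 3 groups. The FPKM sum of the large subunit over that of the small subunit was 1.38, 1.39, 1.45, 1.42 and 1.41 in AngII+QDG, 1.43, 1.39, 1.36, 1.41 and 1.36 in AngII and 1.36, 1.38, 1.35, 1.45 and 1.496 in Control. The groups overlapped, with means of 1.41 ± 0.0278, 1.39 ± 0.0293 and 1.41 ± 0.0621. On the log2(FPKM + 1) scale the mean of the large subunit genes minus that of the small subunit genes was −0.24 ± 0.08 in AngII+QDG, −0.23 ± 0.05 in AngII and −0.24 ± 0.17 in Control (SD, n = 5 each). Control 4 was the library where the subunits were level (0.01), and Control 2 and Control 3 had the widest gap (−0.39 each).

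**Figure D1:**
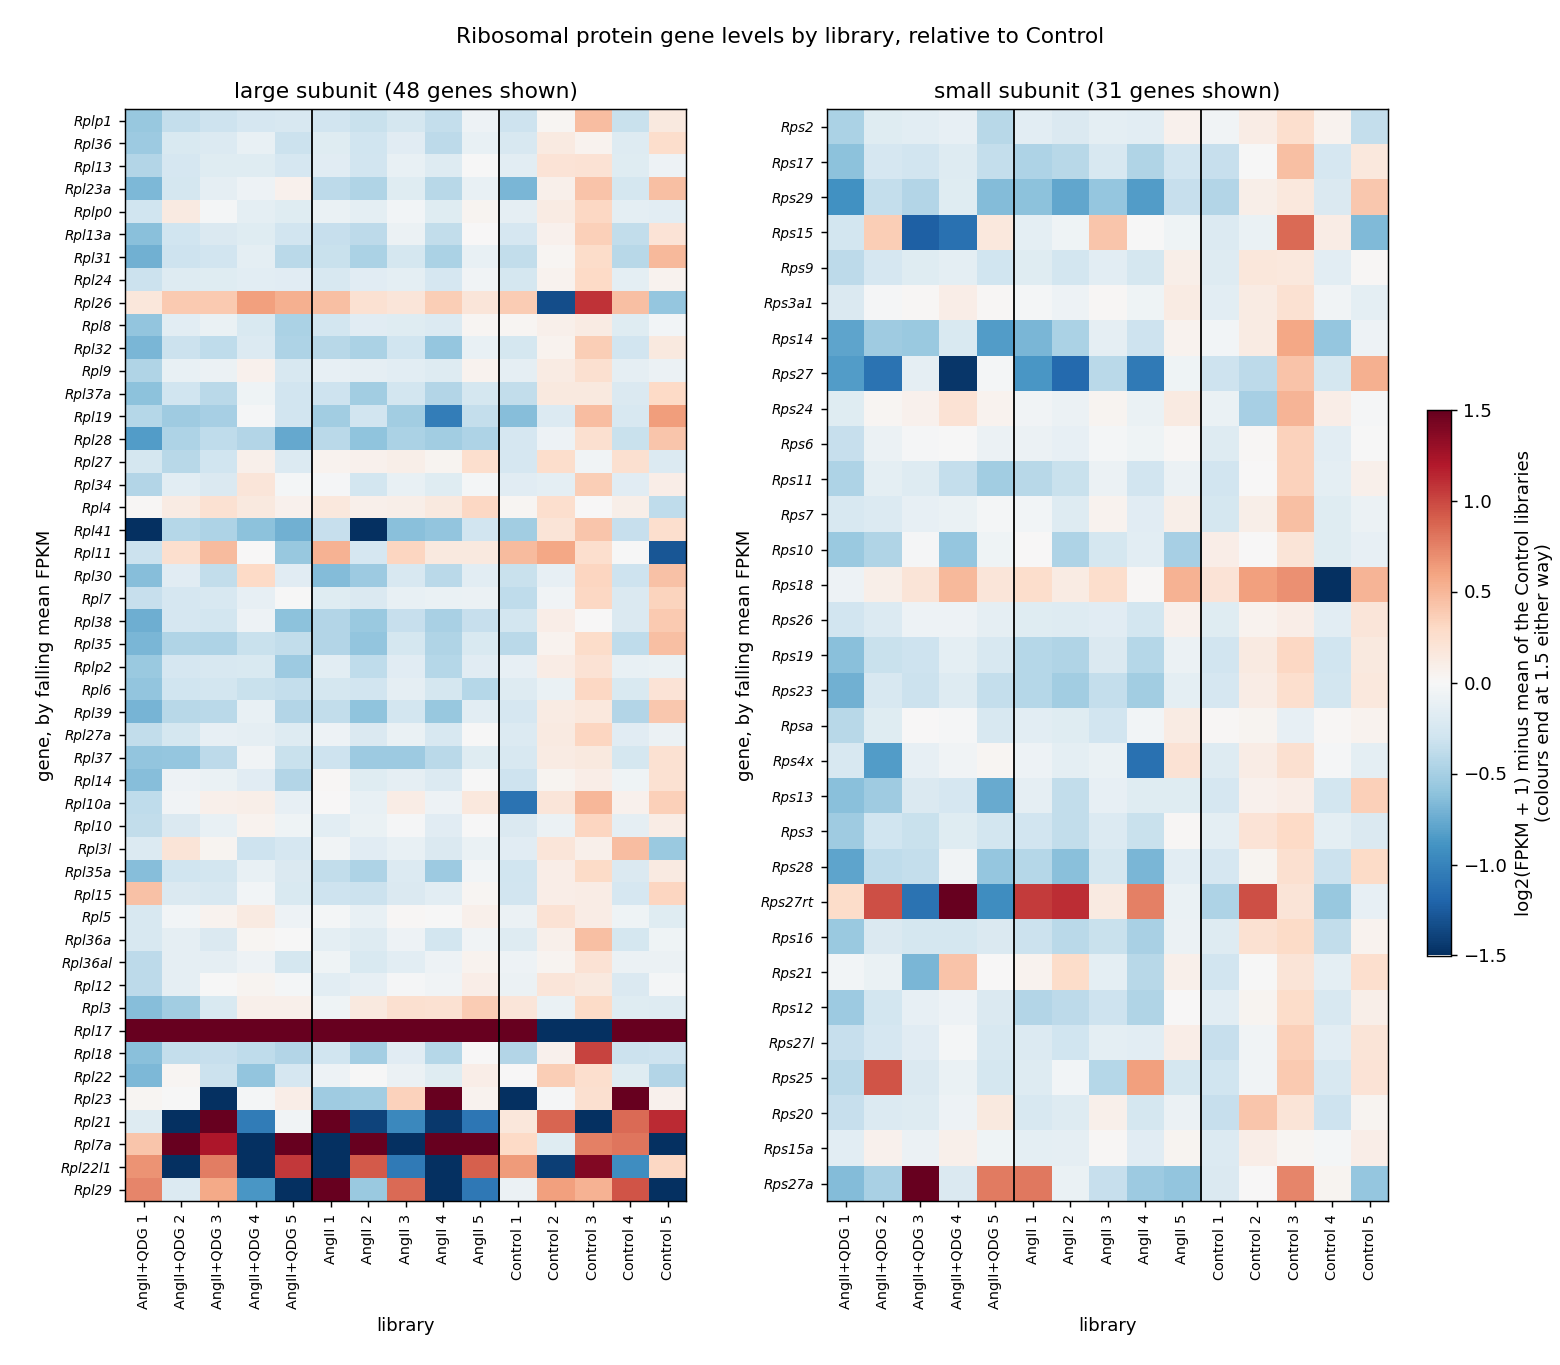
Heat map of log2(FPKM + 1) minus the mean of the 5 Control libraries, for 48 large (left) and 31 small (right) subunit genes in 15 libraries, ordered AngII+QDG, AngII, Control. Most rows are pale blue in AngII+QDG and AngII and reddest in Control 3, AngII+QDG 1 is the bluest column, and a few rows such as Rpl17, Rpl7a and Rpl29 jump between libraries of 1 group.

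In AngII hearts against Control, ribosomal protein genes were on the lower side, but few passed the test. Limma called 3 of 82 genes lower in AngII, among them Rps29 and Rpl28, and none higher (adjusted p under 0.05 over all tested genes), where 1.48% of all genes were called lower and 11.9% higher (13.4% in either direction). The median change was −0.16 log2 units (−0.17 for the large and −0.16 for the small subunit), against 0.20 over all tested genes. Values below 0 were found for 69 of 82 genes, against 27.9% of all genes. An unadjusted p under 0.05 was reached by 22 genes (26.8%), against 31.5% of all genes.

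Rpl28 (chr7:4792874-4795066, GRCm38), a large-subunit protein of animal ribosomes that budding yeast lacks, had 217, 280.5, 297, 287 and 227 FPKM in AngII+QDG hearts, 293, 255, 280.2, 270.3 and 281 FPKM in AngII hearts, and 327, 368, 459, 309 and 518 FPKM in Control hearts. All AngII libraries lay below all Control libraries, and so did 3 of 82 genes in all (Rpl28, Rpl38 and Rplp2, 3.66%), against 1.0% of all tested genes wholly lower and 10.1% wholly higher. The Rpl28 change was −0.49 ± 0.14 log2 units (SE; limma, adjusted p = 0.034).

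Rps29 (chr12:69157722-69159186), a small-subunit protein that binds zinc, had 363, 533, 504, 603 and 434 FPKM in AngII+QDG hearts, 446, 397, 456, 381 and 535 FPKM in AngII hearts, and 503, 725, 765, 586 and 906 FPKM in Control hearts. AngII 5 lay above Control 1, all other AngII libraries lay below all Control libraries, and the change was −0.63 ± 0.17 (limma, adjusted p = 0.0284).

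The next in rank did not pass: Rpl38, which mouse embryos need to translate Hox mRNAs, at −0.44 ± 0.14 (adjusted p = 0.052), Rpl37 at −0.40 ± 0.13 (adjusted p = 0.0548) and Rps23, of the decoding centre, at −0.40 ± 0.13 (adjusted p = 0.0559), all by limma.

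The largest changes belonged to genes that did not pass and whose level jumped between libraries, from −1.38 for Rpl41 to 2.30 for Rpl17.

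The count of 3 moved with single libraries. It was 0 without AngII 2, AngII 4, Control 2, Control 3 or Control 5, 1 (Rps29) without AngII 1, 2 without AngII 5 (Rpl28 lost), 5 without AngII+QDG 1 or AngII+QDG 4, 11 without Control 1 and 16 without Control 4. The share of all genes called lower, 1.48% with every library, moved too. It was 0.23%, 0.24%, 0.55%, 0.42% and 0.77% without AngII 2, AngII 4, Control 2, Control 3 or Control 5, and 0.66% without AngII 1. It was 0.75% without AngII 5, 1.45% and 1.22% without AngII+QDG 1 or AngII+QDG 4, 1.89% without Control 1 and 2.16% without Control 4. Without Control 3 and Control 5 together, the libraries with the strongest short-transcript excess, no ribosomal protein gene was called and the median change was −0.09. Over all genes, 0.03% were then called lower and the median was 0.08. When the short-transcript balance entered the fit as a covariate, the median was 0.15, so the direction turned. The median over all genes then went from 0.20 to −0.01, and 0 of all 12267 genes were called. The part of this balance in the lower values was not tested.

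**Figure D2:**
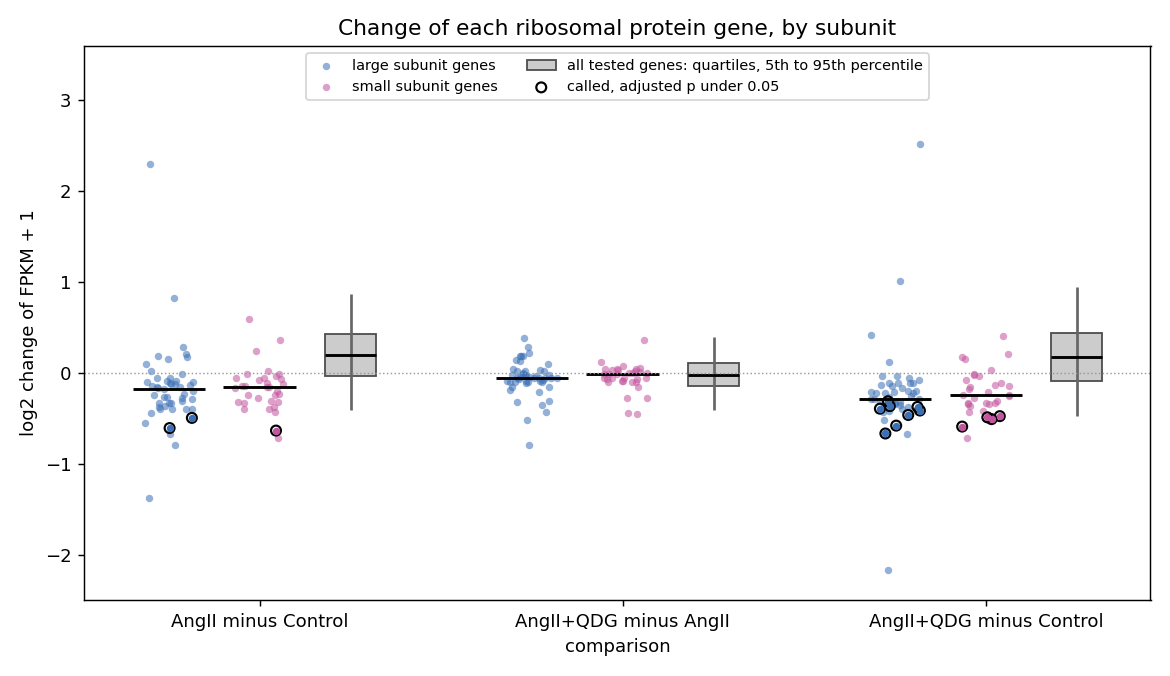
Log2 change of FPKM + 1 for each ribosomal protein gene (points, by subunit), with the median as a line and called genes ringed, beside the quartiles and the 5th to 95th percentile of all tested genes, in 3 comparisons. Against Control, medians of both subunits lie below 0 (−0.28 and −0.25 for AngII+QDG, −0.17 and −0.16 for AngII) while the median of all genes lies above 0 (0.18 and 0.20), and in AngII+QDG against AngII all medians are near 0.

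Other transcripts that were both short and abundant were lower to a like extent, while wider classes of other genes were lower by less or not lower. The longest listed transcript of the ribosomal protein genes had a median of 1045 nt, against 2780 nt over all tested genes. Among genes of at least 100 FPKM with transcripts under 1000 nt, the median change in AngII+QDG against Control was −0.33 for 35 ribosomal protein genes and −0.34 for 160 other genes, of which 6 and 64 were called lower. In AngII against Control the medians were −0.26 and −0.26, with 1 and 38 called lower, and 85.7% and 86.2% lay below 0. Among genes of at least 100 FPKM of any length the medians were −0.26 for 69 ribosomal protein genes and −0.11 for 453 others in AngII+QDG against Control, and −0.20 and −0.06 in AngII against Control. Across the 82 genes the change in AngII against Control was weakly related to length (Spearman's rho 0.20 with the longest transcript), a description over genes that share the same libraries.

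**Figure D3:**
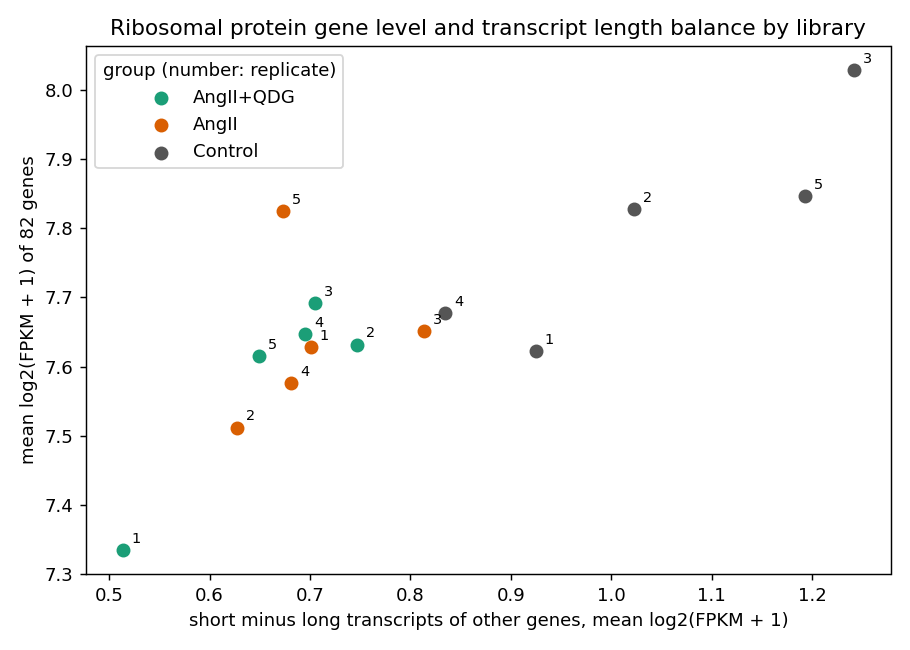
Mean log2(FPKM + 1) of the 82 ribosomal protein genes (vertical) against the short-minus-long balance of other genes (horizontal) in each library, numbered by replicate. Control 3 is highest on both axes (8.03 and 1.24), AngII+QDG 1 lowest on both (7.33 and 0.51), and AngII 5 stands high for its balance (7.83 at 0.67).

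Between AngII+QDG and AngII hearts no ribosomal protein gene passed the test. Limma called 0 of 82 genes and 0 of 12267 genes, 0.0% in either direction. An unadjusted p under 0.05 was reached by 2 of 82 ribosomal protein genes and 578 of all genes (4.71%), and limma on pseudocount 0.1 and limma voom each called 0 of the 82 as well. No ribosomal protein gene had libraries that did not overlap, against 0.799% of all genes wholly lower and 0.595% wholly higher. The median change was −0.05 over the 82 genes, −0.05 for the large and −0.02 for the small subunit, against −0.02 over all genes, and 53 of 82 lay below 0, against 53.7% of all genes. The count stayed at 0 with each library left out in turn and under each other setting listed in the closing section, while the median was 0.00 without AngII 5 and 0.01 without AngII+QDG 1.

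Rpl3 and Rpl27, both of the large subunit, ranked first in AngII+QDG against AngII. Rpl3, which lies close to the peptidyl transferase centre, had 61.5, 66.8, 81.8, 101 and 101 FPKM in AngII+QDG hearts, 91.7, 107, 113, 112 and 126 FPKM in AngII hearts, and 109, 89.7, 118, 84.6 and 83.9 FPKM in Control hearts. The 3 lowest AngII+QDG libraries lay below every AngII library and the others within their range, and the change was −0.43 ± 0.15 (limma, adjusted p = 0.894). Retained-intron transcripts made up 57.4% of the Rpl3 level. Rpl27 averaged 266 ± 36.2 FPKM in AngII+QDG, 330.5 ± 20.4 FPKM in AngII and 312 ± 52.6 FPKM in Control (SD, n = 5 each), a change of −0.32 ± 0.12 (limma, adjusted p = 0.911). Next in rank were Rps13 (−0.28 ± 0.13), Rpl22 (−0.31 ± 0.16), Rpl14 (−0.19 ± 0.12) and Rps14 (−0.28 ± 0.19), each with an adjusted p of 0.998 by limma.

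In AngII+QDG hearts against Control, values were again on the lower side. Limma called 12 of 82 genes lower and none higher, 8 of 49 in the large subunit (Rpl28, Rplp2, Rpl6, Rpl37, Rpl32, Rpl35 and Rpl8 among them) and 4 of 33 in the small (Rps13, Rps29 and Rps14 among them). Of all tested genes 3.31% were called lower and 16.0% higher (19.4% in either direction). The median change was −0.26 log2 units (−0.28 large, −0.25 small), against 0.18 over all genes, and 73 of 82 genes lay below 0, against 32.5% of all. An unadjusted p under 0.05 was reached by 35 genes (42.7%), against 33.9% of all genes. All 3 genes called in AngII against Control were among the 12, but both comparisons use the same Control libraries.

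The called genes sit in different places of the ribosome. Rplp2, the partner of Rplp1 in the stalk, had 204, 249.99, 253, 255 and 205 FPKM in AngII+QDG hearts, 267, 230.2, 265, 222 and 265 FPKM in AngII hearts, and 276, 323, 348, 277 and 279 FPKM in Control hearts. Both AngII groups lay wholly below Control, as for Rpl28, and the change in AngII+QDG was −0.36 ± 0.10 log2 units (limma, adjusted p = 0.0238).

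Rpl6 (chr5:121204481-121209241), a protein of the large subunit, had 182, 222, 227, 217 and 213 FPKM in AngII+QDG hearts, 229, 224, 249.6, 228 and 204 FPKM in AngII hearts, and 239.7, 257, 342, 234 and 316 FPKM in Control hearts. AngII+QDG libraries lay wholly below Control, with a change of −0.37 ± 0.11 (limma, adjusted p = 0.0313), and with Rpl28 and Rplp2 these were 3 of 82 genes (3.66%), against 1.73% of all genes.

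Rps13, a protein of the small subunit body, had 181, 193, 239.8, 235 and 165 FPKM in AngII+QDG hearts, 253, 216, 257, 246 and 247 FPKM in AngII hearts, and 234, 293, 300.2, 231 and 358 FPKM in Control hearts. AngII+QDG 3 and AngII+QDG 4 lay above the lowest Control libraries, Control 4 and Control 1, and the change was −0.47 ± 0.13 (limma, adjusted p = 0.0239); 33.5% of the Rps13 level came from retained-intron transcripts.

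The change of Rpl28 was −0.58 ± 0.14 (limma, adjusted p = 0.0118), and its call held with each library left out in turn. Rplp2 lost its call without AngII+QDG 1, AngII+QDG 5, Control 2 or Control 3, Rps13 without AngII+QDG 1, AngII+QDG 5 or Control 3, and Rpl6 without AngII+QDG 1, AngII+QDG 4, AngII+QDG 5, Control 3 or Control 5. Further calls had adjusted p between 0.0437 and 0.048: Rps29 (−0.51 ± 0.17), Rps14 of the platform, whose loss underlies a human anaemia (−0.59 ± 0.19), Rpl37 (−0.39 ± 0.13), Rpl32 (−0.41 ± 0.14), Rpl35 at the exit tunnel (−0.46 ± 0.15) and Rpl8 near the peptidyl transferase centre (−0.31 ± 0.10).

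The count of 12 was 2 without AngII+QDG 1 or without Control 3, 3 without AngII+QDG 5, 4 without Control 2, 18 without Control 1 and 27 without Control 4. It was 6 or 7 without AngII 1, AngII 2, AngII 3, AngII 4, AngII+QDG 2, AngII+QDG 3 or Control 5. The share of all genes called lower, 3.31% with every library, was 1.52% without AngII+QDG 1, 1.81% without Control 3 and 1.69% without AngII+QDG 5. It was 1.81% without Control 2, 3.58% without Control 1 and 3.63% without Control 4. Without the libraries that gave 6 or 7 it lay between 2.62% and 3.75%. Without Control 3 and Control 5 together the count of 12 became 0, with a median change of −0.17. Over all genes, 1.88% were then called lower and the median was 0.05. The short-transcript balance as a covariate left 0 calls and a median of 0.14, with 0 of all 12267 genes called and a median of −0.05 over them. Removal of each library's length trend left 7 calls and a median of −0.24, with 5.00% of all genes called lower and a median of −0.01 over them.

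**Figure D4:**
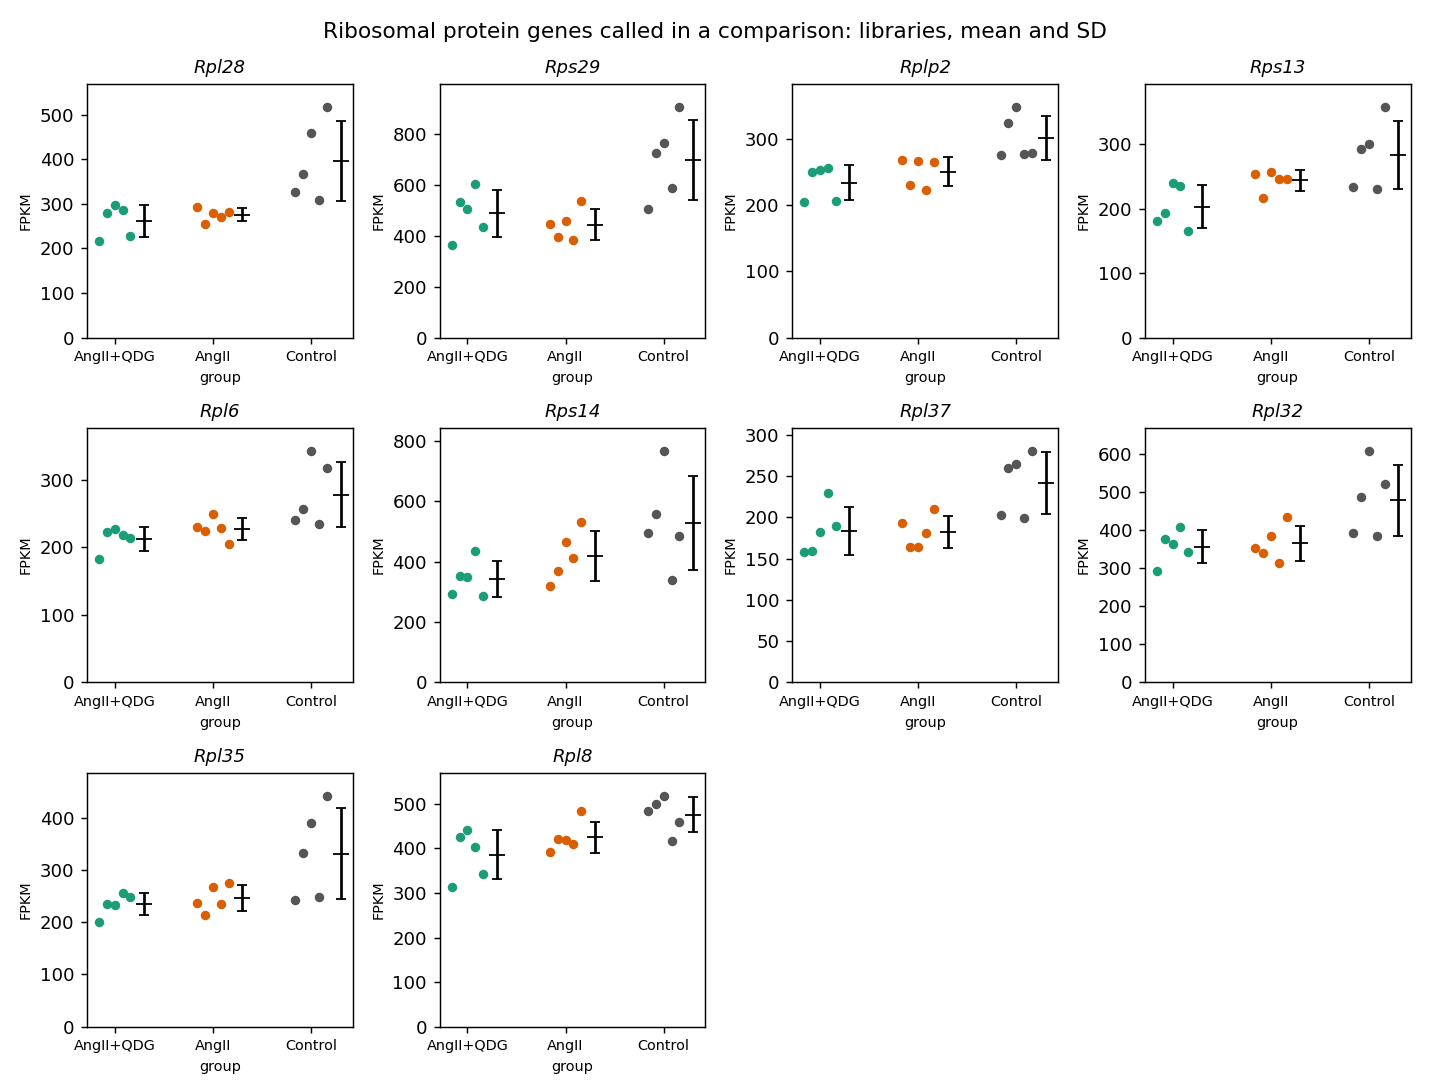
FPKM of 10 genes called in a comparison, with 1 point per library and the mean and SD of 5 libraries beside them, for AngII+QDG (green), AngII (orange) and Control (grey). Control libraries reach highest in every panel and are widely spread, and only Rpl28 and Rplp2 have both AngII groups wholly below Control.

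Other genes of known role were among the majority not called. Rplp0, the base of the stalk, averaged 550.2 ± 62.6 FPKM in AngII+QDG, 556 ± 34.4 FPKM in AngII and 594 ± 90.5 FPKM in Control, and Rplp1 averaged 879 ± 77.6 FPKM in AngII+QDG, 929 ± 76.3 FPKM in AngII and 1136 ± 266 FPKM in Control (SD, n = 5 each). Against Control, Rplp0 differed by −0.10 ± 0.11 in AngII+QDG and −0.08 ± 0.11 in AngII, and Rplp1 by −0.35 ± 0.13 and −0.26 ± 0.13, none called by limma. Rpl5, which with Rpl11 and 5S rRNA forms the particle that binds Mdm2, had 122, 141, 150.2, 159 and 137 FPKM in AngII+QDG hearts, 142, 134, 146, 144 and 153 FPKM in AngII hearts, and 136, 168, 157, 139 and 128 FPKM in Control hearts. All 3 groups overlapped, and its changes were −0.03 ± 0.09 in AngII+QDG and −0.01 ± 0.09 in AngII, each against Control. Rpl11 spanned 110.3 to 404 FPKM over the libraries and is described with the unsteady genes.

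Rps6, the small-subunit protein phosphorylated by S6 kinase downstream of mTOR, had 317, 377, 397, 400.0 and 378 FPKM in AngII+QDG hearts, 377, 369.8, 395, 383 and 407 FPKM in AngII hearts, and 349.9, 405, 509.8, 360.2 and 399.9 FPKM in Control hearts. The 3 groups overlapped, and the change was −0.11 ± 0.10 in AngII+QDG and −0.06 ± 0.10 in AngII against Control. Rps19, mutated in human Diamond-Blackfan anaemia, averaged 265 ± 31.6 FPKM in AngII+QDG, 266 ± 30.95 FPKM in AngII and 336 ± 63.3 FPKM in Control, with changes of −0.33 ± 0.13 in AngII+QDG (adjusted p = 0.0966) and −0.32 ± 0.13 in AngII (adjusted p = 0.113) against Control (limma). Rpl13a, which in human cells also silences inflammatory mRNAs, differed by −0.32 ± 0.14 in AngII+QDG, Rpl10, which completes the peptidyl transferase centre, by −0.14 ± 0.11, and Rpsa, known too as a laminin receptor, by −0.17 ± 0.10, all against Control and not called by limma.

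Some ribosomal proteins have a paralog with a tissue-restricted use, and the balance within such pairs was compared as a log2 ratio inside each library, which a scaling factor of the library barely shifts. Rpl3l, the paralog that replaces Rpl3 in heart and skeletal muscle, had 156, 206, 185, 145 and 151 FPKM in AngII+QDG hearts, 174, 161, 166, 154 and 168 FPKM in AngII hearts, and 160.1, 205, 190.2, 249 and 122 FPKM in Control hearts. Rpl3l exceeded Rpl3 in all 15 libraries. In short stretches of sequence, 87.6% of the leading coding transcript of Rpl3 was found in transcripts of other genes, against 0% for Rpl3l. Retained-intron transcripts also held much of the Rpl3 level, as given above. The Rpl3 level is thus uncertain, and with it the balance of this pair. The log2 ratio of Rpl3l to Rpl3 was 1.33, 1.61, 1.17, 0.52 and 0.57 in AngII+QDG, 0.92, 0.59, 0.55, 0.45 and 0.41 in AngII and 0.55, 1.18, 0.69, 1.55 and 0.54 in Control. AngII+QDG stood above AngII by 0.46 on average, from means of 1.04 ± 0.48 in AngII+QDG and 0.58 ± 0.20 in AngII, with 3 libraries above the AngII range, and this did not pass (exact two-sided permutation test over 252 arrangements, p = 0.0873, adjusted p = 0.595 over 15 tests of 5 pairs). Against Control (0.90 ± 0.45) the ratio differed by 0.14 in AngII+QDG and by −0.32 in AngII (exact permutation p = 0.635 and 0.214).

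Rps27l, a p53-responsive paralog of Rps27, gave the smallest p of the 15. Its log2 ratio to Rps27 averaged −1.59 ± 0.67 in AngII+QDG, −1.52 ± 0.35 in AngII and −2.09 ± 0.25 in Control, and AngII stood above Control by 0.57 (exact permutation p = 0.0317, adjusted p = 0.476). Rps27l itself averaged 108 ± 9.13 FPKM in AngII+QDG, 113 ± 11.95 FPKM in AngII and 126 ± 24.6 FPKM in Control, while Rps27 shares nearly all its sequence with another gene, as shown next. For Rpl36al and Rpl36a, the log2 ratio averaged −0.13 ± 0.13 in AngII+QDG, 0.01 ± 0.11 in AngII and −0.05 ± 0.16 in Control, and the smallest p was 0.119, for AngII+QDG against AngII (exact permutation, adjusted p = 0.595). Rpl22l1 over Rpl22 ranged from −4.92 to −0.82 in AngII+QDG, −5.26 to −1.23 in AngII and −3.93 to −1.02 in Control, following the jumps of Rpl22l1, and Rps4l, a gene outside the rule, over Rps4x averaged −3.28 ± 0.49, −3.22 ± 0.60 and −3.40 ± 0.52 (smallest exact permutation p 0.492 and 0.627). The smallest p this design can give is 0.00794. After adjustment over 15 tests, a single ratio at that p could not have passed at 0.05, so the lack of a pass says little.

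Levels of 18 of the 82 genes ranged over 3-fold between the lowest and highest of all 15 libraries, whatever their group, and none of the 18 was called. Among them were Rpl7a, Rpl10a, Rpl11, Rpl17, Rpl18, Rpl19, Rpl21, Rpl22l1, Rpl23, Rpl26, Rpl29, Rpl41, Rps15, Rps18, Rps27, Rps27a and Rps27rt. Ribosomal protein genes have many processed copies in the genome, and 99 pseudogenes named after 43 of the 82 genes were listed in the tables. A share of the leading coding transcript was found, in stretches of 31 bases, in transcripts of other genes, with a median of 69.4% for the 18 genes and 52.7% for the other 64. Genes with at least 80% of the transcript shared numbered 5 of 18 and 13 of 64. Reads that are shared over their whole length cannot be assigned to a gene by sequence. A read longer than 31 bases may still hold a base that differs, so these shares are not shares of reads.

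Rpl17, a protein around the exit tunnel, had 143, 68.2, 154, 77.2 and 124 FPKM in AngII+QDG hearts, 76.7, 64.7, 79.8, 161 and 106 FPKM in AngII hearts, and 74.3, 0.175, 0.325, 160.2 and 127 FPKM in Control hearts. It was near 0 in Control 2 and Control 3 alone. With its 5 listed pseudogenes added, the libraries held 370.1 to 685 FPKM, and Control 2 and Control 3 had 537 and 549.

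Rpl7a, a large-subunit protein, had 8.83, 97.1, 16.1, 0.0186 and 41.2 FPKM in AngII+QDG hearts, 0, 46.1, 0.0346, 87.7 and 85.4 FPKM in AngII hearts, and 8.08, 5.51, 11.4, 11.8 and 1.29 FPKM in Control hearts. High and near-0 libraries occurred in both AngII groups, and with 4 pseudogenes the range was 124 to 209.6 FPKM. Rpl21, also of the large subunit, ranged from 2.30 to 77.0 FPKM alone and from 107 to 189.8 FPKM with 4 pseudogenes. The pseudogenes without the gene held 110 to 173 FPKM for Rpl7a and 91.9 to 134.5 FPKM for Rpl21. These sums were thus mostly pseudogene FPKM, and their narrow range says little about the genes.

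Rps27, a zinc-binding small-subunit protein, and its retrogene Rps27rt share 98.7% of the Rps27 transcript. Rps27 had 299, 247, 488, 194 and 524 FPKM in AngII+QDG hearts, 291, 237, 402, 255 and 513 FPKM in AngII hearts, and 431, 406, 720.4, 446 and 772 FPKM in Control hearts, and Rps27rt had 183, 294, 69.0, 450.0 and 78.6 FPKM in AngII+QDG hearts, 311, 325, 166, 255 and 141 FPKM in AngII hearts, and 109, 296, 172, 101 and 138 FPKM in Control hearts. In AngII+QDG 4 Rps27 had its lowest and Rps27rt its highest value. Their sum was 482, 542, 557, 644 and 603 FPKM in AngII+QDG hearts, 602, 562, 568, 509.6 and 653 FPKM in AngII hearts, and 539.5, 702, 892, 547 and 909 FPKM in Control hearts, a range of 1.89-fold instead of 3.97-fold and 6.52-fold. The levels of Rps27 and Rps27rt are uncertain, and with them the ratio of Rps27l to Rps27.

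**Figure D5:**
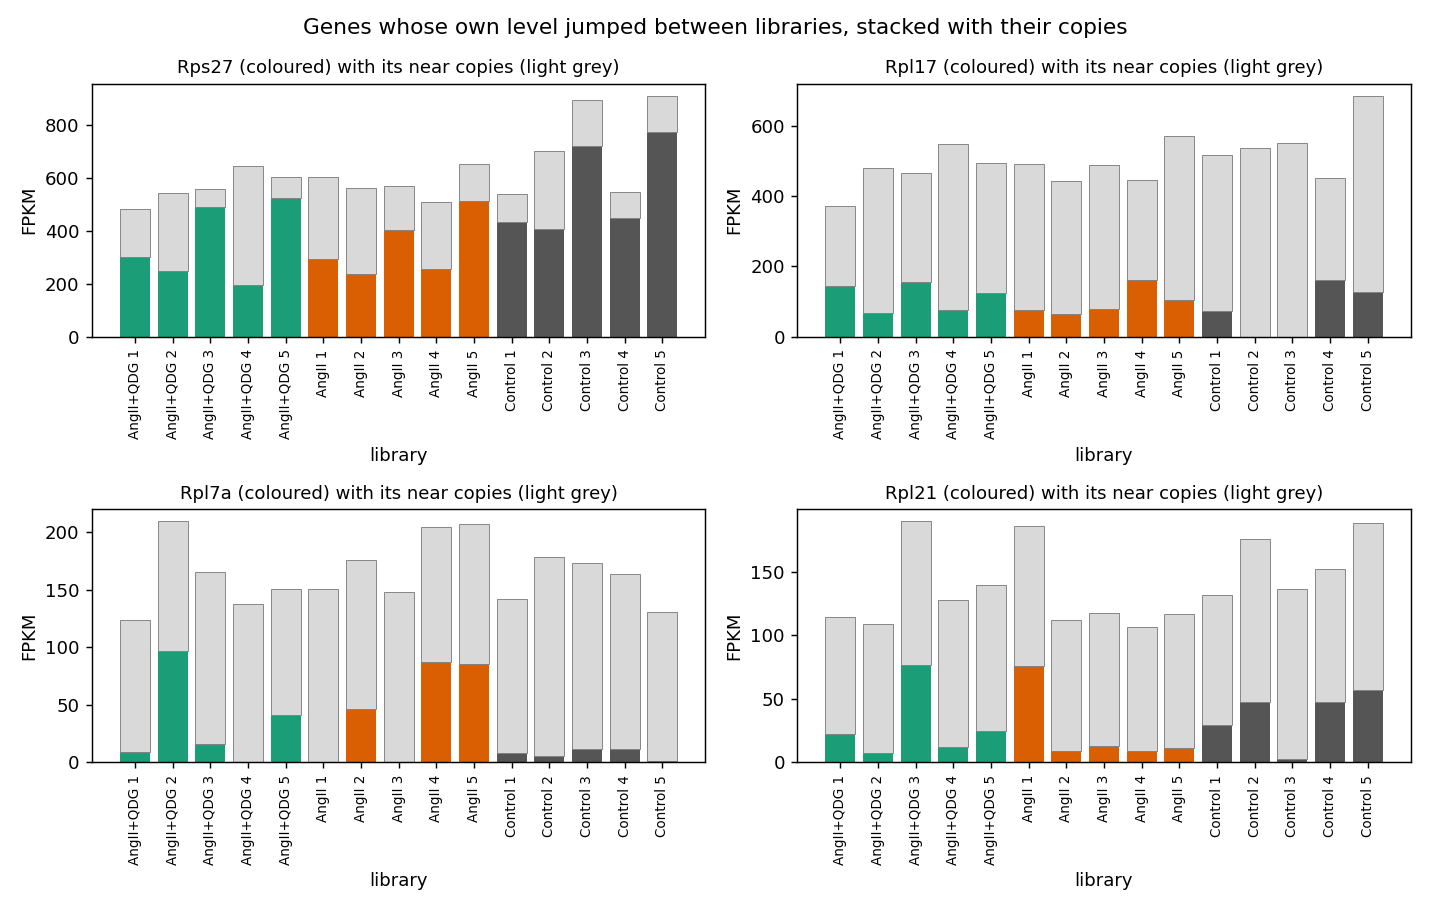
FPKM of Rps27, Rpl17, Rpl7a and Rpl21 in each library (coloured by group) with the FPKM of near copies stacked on top (light grey; Rps27rt for Rps27, pseudogenes of the same name for the others). The coloured parts jump within groups, Rpl17 to near 0 in Control 2 and Control 3, while the stacked totals range 1.69-fold to 1.89-fold. For Rpl7a and Rpl21 the pseudogenes hold most of each total, so its narrow range says little about the gene.

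Rps27a, which encodes ubiquitin fused to a small-subunit protein, was listed at only 3.62 to 21.1 FPKM, and with 1 pseudogene at 109 to 159.9. That pseudogene alone had 103 to 149 FPKM. Rpl29 had 24.9, 12.5, 22.2, 7.54 and 0.307 FPKM in AngII+QDG hearts, 92.2, 9.60, 27.2, 0.465 and 6.42 FPKM in AngII hearts, and 13.7, 22.9, 21.5, 29.1 and 2.96 FPKM in Control hearts, and Rpl22l1 had 28.5, 1.80, 30.5, 2.70 and 37.5 FPKM in AngII+QDG hearts, 1.06, 34.1, 7.88, 5.29 and 33.4 FPKM in AngII hearts, and 27.8, 5.98, 47.4, 8.73 and 22.0 FPKM in Control hearts, with high and low libraries in every group. Rpl41, the smallest of the large-subunit proteins, had 0.0328, 304, 295, 267 and 248 FPKM in AngII+QDG hearts, 322, 11.3, 264, 272 and 335 FPKM in AngII hearts, and 285, 466, 546, 322 and 488 FPKM in Control hearts, lowest in AngII+QDG 1 and AngII 2. For Rpl11, gene sums hid a switch between coding transcripts: ENSMUST00000155873 was at 198, 220, 152 and 266 FPKM in AngII+QDG 3, AngII 1, Control 1 and Control 2 and at most 2.16 FPKM in the other 11 libraries. Rpl10 was steady as a gene (145 to 236 FPKM), yet its transcript ENSMUST00000008826 was listed at 0 in Control 1 and Control 2 and at 74.6 to 139 FPKM elsewhere. The transcript with the most FPKM was not the same in all libraries for 31 of the 82 genes.

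Many ribosomal protein genes moved together from library to library within groups, and some did not. After removal of group means, the median correlation over 3321 pairs of all 82 genes was 0.42, and 81.8% of pairs were above 0, over 15 libraries that the genes share. With the mean of the other genes, 43 genes had a correlation above 0.7, led by Rps23 (0.94), and 17 one below 0.3, lowest for Rpl17 (−0.59), Rpl21 (−0.38), Rpl29 (−0.24) and Rpl7a (−0.18). Of these 17, 10 were among the genes that ranged over 3-fold and 7 were not: Rpl3l (0.03), Rpl15 (0.05), Rps21 (0.14), Rpl27 (0.15), Rpl4 (0.18), Rps10 (0.24) and Rps25 (0.25). The median SD within groups was 0.22 log2 units for ribosomal protein genes and 0.29 for all tested genes. These correlations describe the libraries and include whatever length balance the libraries have.

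Retained-intron transcripts, which keep an intron and are mostly not translated, held 5.61 ± 0.675% of the FPKM of the 82 genes in AngII+QDG, 5.32 ± 0.348% in AngII and 5.38 ± 1.02% in Control (SD, n = 5 each), with overlapping ranges. They made up 117 of the 338 listed transcripts of these genes, against 171 protein-coding ones. Counting protein-coding transcripts alone called 3 genes in AngII and 10 in AngII+QDG, each against Control. Of 10587 genes tested in this way, 0.82% and 2.78% were called lower. The 3 in AngII were not all the same genes as with every transcript counted, and Rpl6 and Rpl8 lost their calls in AngII+QDG.

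Of the ribosomal proteins whose symbols fall outside the rule, Fau was called lower in both comparisons with Control. Fau, a ubiquitin-like protein fused to a small-subunit protein, had 282, 369, 359, 380.2 and 312 FPKM in AngII+QDG hearts, 369, 332, 392, 308 and 435 FPKM in AngII hearts, and 425, 576, 704, 373 and 636 FPKM in Control hearts. It fell by 0.64 ± 0.16 (adjusted p = 0.0163) in AngII+QDG and 0.53 ± 0.16 (adjusted p = 0.0467) in AngII on the log2 scale (limma). Without Control 3 and Control 5 it was not called. Rack1, a scaffold on the small subunit, had changes of 0.05 ± 0.22 (adjusted p = 0.892) in AngII+QDG and 0.17 ± 0.22 (adjusted p = 0.624) in AngII.

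Genes that make and regulate ribosomes had medians above 0, as did all tested genes (0.18 in AngII+QDG and 0.20 in AngII, with 16.0% and 11.9% of all genes called higher and 3.31% and 1.48% lower). Of 65 tested ribosome biogenesis genes, 11 (16.9%) were called higher and 2 (3.08%) lower in AngII+QDG against Control, with a median change of 0.19, and 11 (16.9%) higher and 0 lower in AngII against Control, with a median of 0.27. Bms1, a GTPase that assembles the small subunit, had 2.11, 3.53, 2.83, 3.67 and 4.07 FPKM in AngII+QDG hearts, 5.00, 3.42, 2.81, 4.75 and 4.25 FPKM in AngII hearts, and 0, 0.295, 0, 0.96 and 0 FPKM in Control hearts. Control 1, Control 3 and Control 5 were listed at 0, and all libraries of both AngII groups lay above Control. On the log2(FPKM + 1) scale Bms1 rose by 1.79 ± 0.21 (adjusted p = 6.17e-04) in AngII+QDG and 2.05 ± 0.21 (adjusted p = 1.92e-04) in AngII (limma). Ddx21, an RNA helicase of the nucleolus, rose by 0.70 ± 0.14 (adjusted p = 0.0057) in AngII+QDG and 0.67 ± 0.14 (adjusted p = 0.0158) in AngII, and Tsr1, which acts with Bms1 in small-subunit assembly, by 0.61 ± 0.12 (adjusted p = 0.0149) in AngII (limma). After each library's length trend was removed, 5 and 1 of the 65 were called higher and 3 and 0 lower in AngII+QDG and AngII, and Bms1 was at 1.46 and 1.71. Without Control 3 and Control 5, 8 and 1 were called higher and 1 and 0 lower. After median scaling 5 and 2 were higher and 6 and 2 lower, and with the balance as a covariate 0 in either direction. Of all 12267 genes, 701 and 204 were called higher and 613 and 140 lower without length trends. The counts were 968 and 93 higher and 231 and 4 lower without Control 3 and Control 5. After median scaling they were 791 and 361 higher and 1625 and 715 lower, and with the covariate 0.

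Among 51 translation factors, 9 (17.6%) were called higher and 3 (5.88%) lower in AngII+QDG, and 6 (11.8%) higher and 0 lower in AngII, each against Control (medians 0.15 and 0.14), shares near those of all genes for the higher calls. In AngII+QDG the balance turned to 2 higher and 4 lower without length trends and 3 higher and 8 lower after median scaling, and in AngII to 1 higher and 4 lower after median scaling. With the covariate 0 were called, as for all 12267 genes, whose counts in the other settings are given above. Eif2s3x, a subunit of the factor that brings the initiator tRNA, rose by 1.07 ± 0.19 (adjusted p = 0.004) in AngII+QDG and 0.94 ± 0.19 (adjusted p = 0.0149) in AngII, while Eif3k, a subunit of the Eif3 complex, fell by 0.46 ± 0.11 (adjusted p = 0.0106) in AngII+QDG (limma). Among 38 growth regulators of ribosome synthesis, 8 (21.1%) were called higher in AngII+QDG and 4 (10.53%) in AngII, and none lower (medians 0.20 and 0.26), against the 16.0% and 11.9% of all genes. Polr1e, a subunit of RNA polymerase I, rose by 0.92 ± 0.21 (adjusted p = 0.00879) in AngII+QDG and 0.84 ± 0.21 (adjusted p = 0.0238) in AngII, and Rps6kb1, the S6 kinase, by 0.52 ± 0.13 (adjusted p = 0.0133) and 0.44 ± 0.13 (adjusted p = 0.0391) (limma). After removal of the length trend, 1 regulator was called higher and 1 lower in AngII+QDG, and 0 in AngII, after median scaling 1 higher and 2 lower in AngII+QDG and 0 in AngII, and with the covariate 0.

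Mitochondrial ribosomal proteins, encoded in the nucleus for the ribosome inside mitochondria, had medians below 0, as the cytosolic ones did. Of 78 tested, 7 (8.97%) were called lower in AngII+QDG and 2 (2.56%) in AngII against Control, and none higher, with medians of −0.13 and −0.07, where 3.31% and 1.48% of all genes were called lower. Mrps11 averaged 20.6 ± 2.45 FPKM in AngII+QDG, 22.5 ± 2.25 FPKM in AngII and 29.6 ± 3.62 FPKM in Control (SD, n = 5 each) and fell by 0.50 ± 0.11 (adjusted p = 0.00923) in AngII+QDG and 0.38 ± 0.11 (adjusted p = 0.0408) in AngII on the log2 scale (limma). Mrps36 fell by 0.36 ± 0.09 (adjusted p = 0.0123) and 0.28 ± 0.09 (adjusted p = 0.0465) (limma). It is counted here by its name, and its place in the mitochondrial ribosome is in doubt. Without Control 3 and Control 5 the counts of mitochondrial ribosomal proteins called lower were 4 and 0. After median scaling they were 40 and 17, without length trends 15 and 1, and with the covariate 0 and 0. Of all genes, 1.88% and 0.03% were called lower without Control 3 and Control 5, and 13.2% and 5.83% after median scaling. Without length trends 5.00% and 1.14% were called lower, and with the covariate 0. In AngII+QDG against AngII none of these 4 lists had a called gene by limma, as for all 12267 genes, of which 578 had an unadjusted p under 0.05.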

How the data were processed

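RNA-seq was deposited for 15 mouse hearts, 5 per group, as 1 table of transcripts per library. The deposited values are FPKM, as judged from the values themselves, since the file headers do not state the unit. The labels' protocols describe Trizol extraction, rRNA depletion and an NEB library kit, and the submitters' processing notes name the build GRCm38 and limma; the aligner is not given in the sources used here. FPKM times transcript length rose in whole steps (96.2% to 96.5% of values within 0.1 of a whole step, by group mean), from which depth was read. More steps mean less counting error, so that abundant genes are limited by the spread between libraries, and no interval was computed from the steps. Whether libraries of a group are separate animals rests on the series text, which gives 5 mice per group.

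Ensembl transcripts were named with GENCODE M21 and summed per gene, 12391 genes in all. A gene was tested if 5 or more libraries reached 0.5 FPKM, which left 12267. Limma 3.58.1 (R 4.3.3; intensity trend, robust, all 15 libraries in 1 fit) was run on log2(FPKM + 1), with Benjamini-Hochberg adjustment over all tested genes and a threshold of 0.05. Fold changes of low genes are understated on this scale. Paralog ratios were compared with exact permutation tests in SciPy 1.17.1. The fit was tested on simulated data.

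The members and the gene lists were chosen with earlier results of these data known. Genes named are the 6 with the smallest p per comparison, the 5 highest and 5 lowest levels, the paralog pairs, the stalk genes and 8 genes of known role, plus up to 4 per related list, except that some of these genes are not reported here; the remaining called genes and those over a 3-fold range were named after their values were seen. Alternatives were pseudocount 0.1, no filter, quantile and median scaling, removal of length trends, the length balance as a covariate, shared transcripts, protein-coding transcripts, pairs of groups, a replicate block, voom on recovered fragments, and libraries left out. Adding pseudogenes and leaving out genes over a 3-fold range were chosen after seeing the data. Replicate numbers did not pair the libraries: same-numbered libraries had correlations of deviations between −0.10 and 0.09, none of 15 above 0.1. Promoter sequences are from RefSeq (GRCm38.p6).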

Additional observations from a re-analysis of the deposited data

Results flagged for a closer look

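Of 144 groups of 5 libraries examined, 10 held a library far from the other 4 of its group, where chance gives about 1 in 20. For Rpl21, AngII+QDG 3 was the highest with 77.0 FPKM, and in AngII the highest was AngII 1 with 76.3 FPKM. Rpl27 was highest in AngII 5 (366 FPKM), Rps2 likewise in AngII 5 (688 FPKM), and Rps27a in AngII 1 (11.6 FPKM). The lowest libraries that stood apart were AngII 2 for Rps13 (216 FPKM), AngII+QDG 1 for Rps6 (317 FPKM) and Control 3 for Rpsa (266 FPKM). AngII+QDG 1 also had the lowest mean of the 82 ribosomal protein genes in its group (7.33 on the log2(FPKM + 1) scale) and the highest share of their FPKM in retained-intron transcripts (6.77%). Without AngII+QDG 1, limma called 2 instead of 12 ribosomal protein genes in AngII+QDG against Control and 5 instead of 3 in AngII against Control. Of all genes, 1.52% instead of 3.31% and 1.45% instead of 1.48% were then called lower in these comparisons.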

How the results depend on the processing

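Counts of called ribosomal protein genes in AngII+QDG against Control (12) and AngII against Control (3) depended on the scaling, and the cause was not tested. Median scaling gave 40 and 12 (median changes −0.52 and −0.42), removal of each library's length trend 7 and 0, the fit to only the groups compared 2 and 0, and leaving out Control 3 and Control 5 together 0 and 0. Quantile normalization gave 3 in AngII+QDG against Control and turned the median of AngII+QDG against AngII to 0.017. With the length balance as a covariate both counts were 0, the medians were 0.14 and 0.15, and values turned positive for genes including Rpl28 (0.051), Rpl32 (0.16), Rpl35 (0.23), Rpl6 (0.14), Rps13 (0.016), Rps14 (0.085) and Rps29 (0.14) in AngII+QDG against Control and for Rpl28 (0.075), Rpl38 (0.032) and Rps23 (0.085) in AngII against Control. This covariate does not overlap between AngII groups and Control. With it, 0 of all 12267 genes were called in both comparisons, and the medians over all genes were −0.05 and −0.01. Of all genes, 1.43% and 0.17% were called lower in the fit to only the groups compared. Without Control 3 and Control 5 these shares were 1.88% and 0.03%. Over libraries left out in turn, the counts ranged from 2 to 27 and from 0 to 16. The shares of all genes called lower then ranged from 1.52% to 3.75% and from 0.23% to 2.16%. The median of AngII+QDG against AngII ranged from −0.091 to 0.0078. The count for AngII+QDG against AngII was 0 under all 29 alternatives.

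Paralog log2 ratios, none of which passed or could have passed alone, turned as follows. In AngII+QDG against Control, Rpl22l1/Rpl22 was 0.090 without length trends and 0.48 without Control 3 and Control 5 (left-out range −0.59 to 0.50), Rpl3l/Rpl3 −0.052 without Control 3 and Control 5 (range −0.0024 to 0.30), and Rps4l/Rps4x −0.0884 after quantile normalization and −0.16 without Control 3 and Control 5 (range −0.076 to 0.27). In AngII against Control, Rps4l/Rps4x was −0.032 and −0.10 in the same settings (range −0.084 to 0.33) and Rpl36al/Rpl36a −0.034 without Control 3 and Control 5 (range −0.0056 to 0.10). In AngII+QDG against AngII, Rps27l/Rps27 was 0.43 with protein-coding transcripts alone (range −0.30 to 0.11) and Rps4l/Rps4x ranged from −0.25 to 0.21.

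With the replicate block, 11, 0 and 3 ribosomal protein genes were called in AngII+QDG against Control, AngII+QDG against AngII and AngII against Control; over all genes the block gave 1857, 0 and 516 calls, against 2374, 0 and 1638 without it. Each library correlated best with its own number in 3 of 30 cases. Counts were 10 to 12, 0 and 3 with voom, protein-coding transcripts alone, shared transcripts, no filter, pseudocount 0.1, added pseudogenes or without genes over a 3-fold range. The genes called were not always the same. Apart from the last of these settings, 2.78% to 3.30% of all genes were called lower in AngII+QDG against Control. In AngII against Control the shares were 0.82% to 1.48%. Over all genes, higher and lower calls in AngII+QDG against Control were 1968 and 406 as deposited, 791 and 1625 after median scaling, 983 and 999 after quantile normalization and 701 and 613 without length trends; in AngII against Control they were 1457 and 181, 361 and 715, 406 and 413, and 204 and 140. Counting error is largest for genes listed near 0, and shared sequence limits Rps27, Rps27rt, Rpl17, Rpl7a and Rpl3.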
